A study of Homo sapiens with 12 samples.

Results

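The 9 genes described here are MLX, MLXIP, MLXIPL, TXNIP, ARRDC4, ARRDC2, ARRDC3, KLF10 and KLF11, which encode glucose-sensing transcription factors, the alpha-arrestins related to their best known target, and a pair of zinc-finger repressors. They were taken from the table by gene symbol, and all 9 were found, each as 1 row of 16389. They were measured by RNA-seq in HepG2 cells, an established human liver cancer line, here a single line bought at passage 9 and grown with 10% fetal bovine serum. LG cells were kept in 5.5 mM glucose and HG cells were given 20 mM glucose for 48 h. LGV and HGV cells had the same media for 48 h. They then had 1 mM valproic acid (VPA), an inhibitor of histone deacetylases, for another 12 h. Whether the untreated cells were also kept for these further 12 h is not stated, so time in culture may differ along with VPA. Each of the 4 groups had 3 libraries. The labels do not say whether replicates were separate cultures, so p-values measure the spread between these libraries, which may be technical.

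MondoA (encoded by MLXIP) and ChREBP (encoded by MLXIPL) are basic helix-loop-helix proteins that enter the nucleus when hexose phosphates accumulate, and each binds DNA as a dimer with MLX. Their target sites are paired E-box-like motifs in promoters, and ChREBP is known in the liver as a driver of glycolytic and lipogenic genes. TXNIP is their most glucose-responsive target in many cells, and its protein binds thioredoxin and restrains glucose uptake, while ARRDC4 is a relative with a similar action on glucose uptake. KLF10 and KLF11 are repressors of the Sp1-like family, first known as early genes of the TGF-beta response.

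Promoter windows of TXNIP, ARRDC4 and KLF11 are printed. TXNIP and ARRDC4 had the highest rises with glucose, and KLF11 was the other riser with a full E-box in 1 of its windows. Each covers 250 bases before and 50 bases after a transcript start of RefSeq (GRCh38.p14 table) and was placed by exact match on GRCh37, the build of the counts. Of the 9 genes 8 had an entry, and KLF10 had none. Capitals mark the E-box (CACGTG), the CCAAT box on either strand (read as ATTGG on the other strand) and, in TXNIP, the paired motif, searched on both strands as CACGNG, then any 5 bases, then CNCGNG. The windows were TXNIP at chr1:145438240-145438539, ARRDC4 at chr15:98503683-98503982 and KLF11 at chr2:10183706-10184005, all on the plus strand. TXNIP and KLF11 each had 2 windows. Those not printed, at chr1:145439075-145439374 and chr2:10184098-10184397, held none of these motifs. The printed KLF11 window lies inside the gene, which begins at chr2:10182976, so its E-box is placed relative to a transcript start within the gene.
TXNIP: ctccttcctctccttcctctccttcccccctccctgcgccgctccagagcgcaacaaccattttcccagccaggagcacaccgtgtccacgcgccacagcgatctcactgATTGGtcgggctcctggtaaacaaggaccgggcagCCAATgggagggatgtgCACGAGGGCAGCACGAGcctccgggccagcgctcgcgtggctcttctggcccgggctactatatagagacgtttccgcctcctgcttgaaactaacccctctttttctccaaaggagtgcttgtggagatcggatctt
ARRDC4: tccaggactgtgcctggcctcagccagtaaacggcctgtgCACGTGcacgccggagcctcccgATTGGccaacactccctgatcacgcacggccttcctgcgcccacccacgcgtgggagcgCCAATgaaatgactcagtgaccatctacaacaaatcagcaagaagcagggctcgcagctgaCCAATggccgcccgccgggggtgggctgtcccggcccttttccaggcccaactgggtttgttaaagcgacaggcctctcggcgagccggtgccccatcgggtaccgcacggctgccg
KLF11: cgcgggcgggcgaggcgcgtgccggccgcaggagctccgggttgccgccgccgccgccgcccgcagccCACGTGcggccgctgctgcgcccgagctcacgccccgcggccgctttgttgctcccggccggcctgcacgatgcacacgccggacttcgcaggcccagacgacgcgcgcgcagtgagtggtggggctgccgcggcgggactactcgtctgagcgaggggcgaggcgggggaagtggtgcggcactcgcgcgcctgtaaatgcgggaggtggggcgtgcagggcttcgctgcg
The paired motif of TXNIP began 88 bases before the start, and a CCAAT box began 105 bases before it. The paired motif was found in 176 of 35116 such windows of all genes (0.501%). The E-box of ARRDC4 lay 210 bases before the start with 3 CCAAT boxes downstream of it, and that of KLF11 lay 182 bases before the start. MLX also held an E-box, 50 bases before its start. ARRDC3, which rose with glucose too, held a CCAAT box but no E-box and no paired motif in its windows. E-boxes were found in 7.26% of all windows and CCAAT boxes in 34.6%. A match describes the letters in the window and does not show binding.

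The 9 genes are protein-coding, and their positions on GRCh37 come from GENCODE. The sensors lie at chr17:40719090-40725257 (MLX, plus strand), chr12:122516628-122631894 (MLXIP, plus) and chr7:73007524-73038873 (MLXIPL, minus). The arrestins lie at chr1:145438490-145442635 (TXNIP, plus), chr15:98503933-98517063 (ARRDC4, plus), chr19:18111941-18124911 (ARRDC2, plus) and chr5:90664448-90679134 (ARRDC3, minus). KLF10 lies at chr8:103661012-103667953 (minus) and KLF11 at chr2:10182976-10194963 (plus). Reads were counted over exons, and 18.2% of the exon bases of MLX overlap PSMC3IP on the other strand, while 9.53% of those of ARRDC2, 9.06% of those of KLF11 and 2.91% of those of ARRDC3 overlap noncoding or unclassified transcripts there. Whether counting used strand is not stated, so these 4 genes could share reads with the opposite strand.

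Library totals ran from 29798442 to 45572694 counts. All 10 hepatocyte markers were present, with summed levels of 40080 to 61650 CPM (counts scaled to library size and TMM factors), lowest in LGV at 40080 to 41010. Of 12 markers of fibroblasts, endothelium and leukocytes, 4 (COL1A1, CDH5, VWF and CD14) were in the table, with sums of 3.82 to 5.31 CPM in LG and LGV and 7.22 to 9.81 CPM in HG and HGV. Their part in the results was not tested. HG replicate 1 stood apart in the genes described here. It was compared with the mean log2 CPM of HG replicates 2 and 3 over the 12480 genes whose mean reached 1 log2 CPM, with percentiles 1 and 99 at -0.52 and 0.68. TXNIP had the lowest difference of all, at -1.62, with ARRDC4 at -1.23 (4 genes lower) and KLF10 at -1.06 (7 genes lower). KLF11 was 0.37 lower and ARRDC3 was 0.43 higher, and results are given below without this library where it matters. Of 21 other known glucose-response targets measured, 13 were lower in it. Their median was -0.15, against -0.009 over all 12480 genes, and they ran from -0.90 (PKLR) to 0.86 (PFKFB3).

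**Figure D1:**
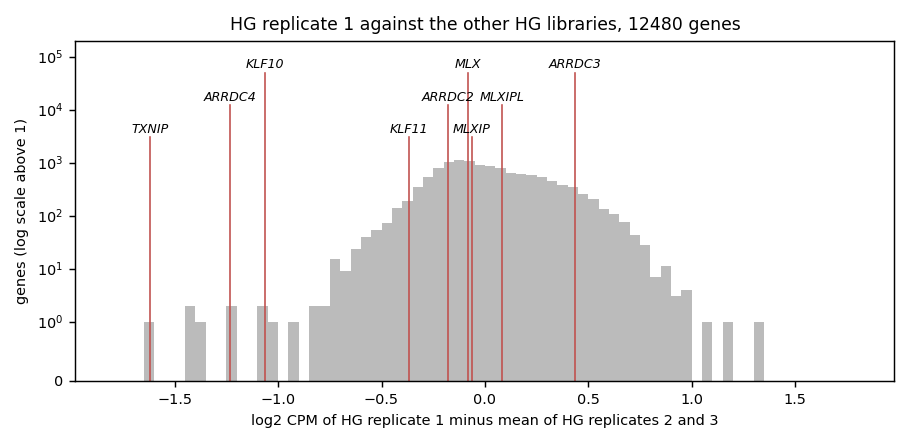
The histogram shows, over 12480 genes, the log2 CPM of HG replicate 1 minus the mean of HG replicates 2 and 3 (x axis), with the number of genes on a log axis above 1, and red lines mark the 9 genes. TXNIP at -1.62, ARRDC4 at -1.23 and KLF10 at -1.06 lie below nearly all genes, while the sensors lie near 0.

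Glucose raised TXNIP, ARRDC4, KLF10, KLF11 and ARRDC3 and lowered ARRDC2 and MLXIP, as 7 of the 9 genes passed the edgeR test of HG against LG at an FDR of 0.05 or less. Of all 15452 genes tested, 24.7% passed, 12.0% higher and 12.7% lower (14.0% and 8.39% when scaled by library size, 15.9% and 8.84% by upper quartile). TXNIP had the highest log2 fold change of all tested genes and ARRDC4 the next. In bulk RNA, fewer cells expressing a gene and less RNA per cell cannot be told apart. The median log2 fold change of the 9 genes was 0.83, against 0.011 over all genes. Because the 9 genes were chosen with earlier results of these data known, their counts and medians, here and below, describe them and are not a test.

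TXNIP was at 6.58, 6.21 and 6.31 CPM in LG and at 106.5, 389 and 277 CPM in HG. The groups did not overlap, and HG replicate 1 was the lowest HG library by far. The log2 fold change was 5.37 ± 0.29 (SE, n = 3 per group; 41.4-fold; FDR = 6.81e-09), and 5.75 without HG replicate 1 (FDR = 3.35e-09). ARRDC4 was at 1.01, 1.17 and 1.25 CPM in LG and at 5.23, 15.4 and 10.9 CPM in HG, again with HG replicate 1 lowest. It rose by 3.22 ± 0.31 (9.29-fold; FDR = 1.36e-06), and by 3.55 without that library (FDR = 8.78e-06).

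KLF10 was at 18.8, 20.3 and 17.6 CPM in LG and 47.3, 116 and 84.8 CPM in HG. It rose by 2.16 ± 0.22 on the log2 scale (FDR = 2.37e-06; 2.45 without HG replicate 1). KLF11 was at 20.0, 20.1 and 12.2 CPM in LG and 27.6, 37.7 and 34.0 CPM in HG. The groups did not overlap, although LG replicate 3 was well below the other LG libraries, and the rise was 0.95 ± 0.18 (FDR = 0.00116).

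Among the remaining arrestins, ARRDC3, an adaptor in the ubiquitination of beta-adrenergic receptors, was at 2.84, 3.32 and 4.42 CPM in LG and at 7.64, 5.26 and 5.80 CPM in HG. It rose by 0.83 ± 0.22 (FDR = 0.00987), but missed the threshold without HG replicate 1 (0.68, FDR = 0.0643) or LG replicate 1 (0.73, FDR = 0.0691). ARRDC2, an alpha-arrestin, moved the other way, from 16.2, 16.6 and 13.9 CPM in LG to 9.29, 10.7 and 10.5 CPM in HG. It fell by 0.59 ± 0.16 (FDR = 0.012), and missed the threshold without HG replicate 3 (FDR = 0.0667) or LG replicate 1 (FDR = 0.0614).

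Of the sensors, MLXIP was at 81.2, 78.8 and 65.8 CPM in LG and 55.6, 63.1 and 53.5 CPM in HG. It fell by 0.37 ± 0.13 (FDR = 0.0459), and missed the threshold without HG replicate 1 (FDR = 0.119), HG replicate 3 (FDR = 0.245), LG replicate 1 (FDR = 0.189) or LG replicate 2 (FDR = 0.126), and with library size or upper quartile in place of TMM (FDR = 0.123 and 0.116), no filter (FDR = 0.0587) or the replicate number as a block (FDR = 0.0931). MLX was at 82.4, 73.4 and 74.6 CPM in LG and 58.6, 60.0 and 64.3 CPM in HG, with a log2 fold change of -0.31 (interval -0.56 to -0.06, FDR = 0.0660). In a fit of all 12 libraries MLX passed (-0.33, FDR = 0.0266). MLXIPL was at 159, 120 and 144 CPM in LG and 169, 161 and 157 CPM in HG, with a log2 fold change of 0.23 (interval -0.03 to 0.49, FDR = 0.191). The HG values of MLXIPL overlapped those of LG.

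**Figure D2:**
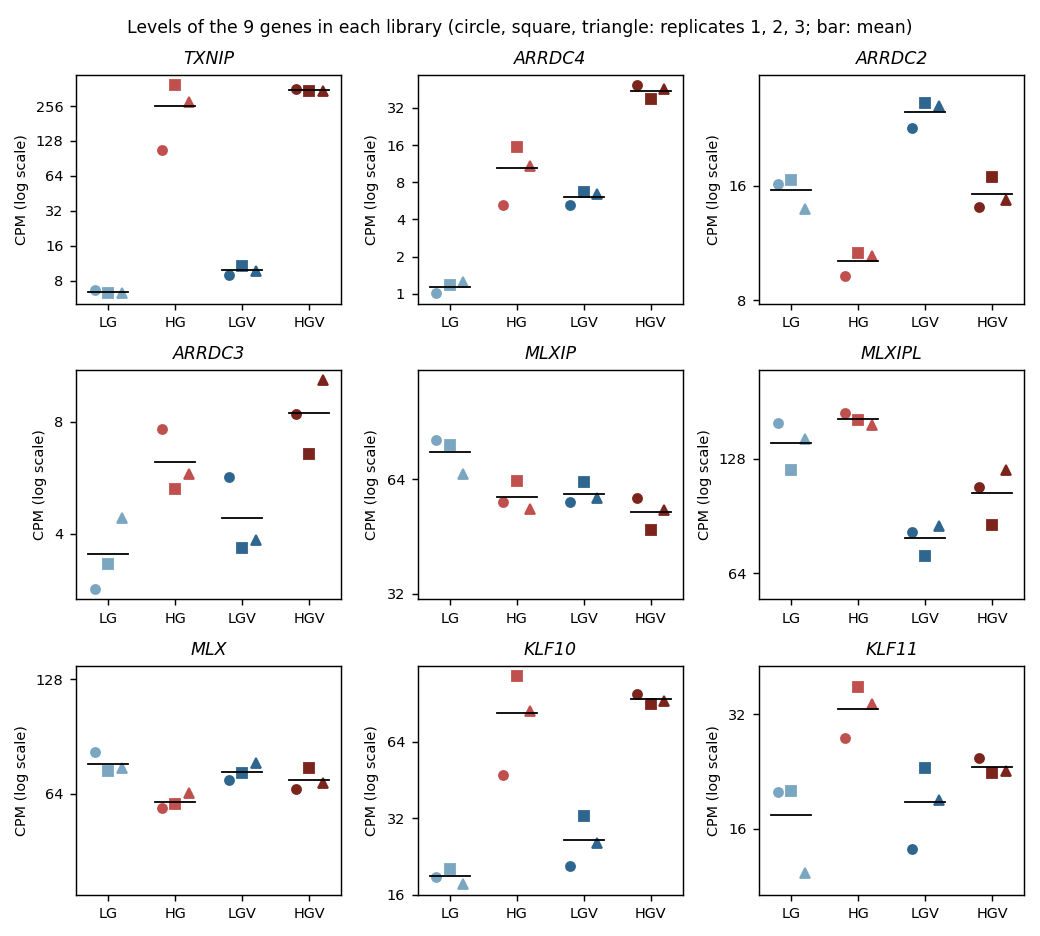
Each panel plots the CPM (log axis) of 1 gene in LG, HG, LGV and HGV libraries, with circles, squares and triangles for replicates 1, 2 and 3 and bars for the mean. TXNIP was below 11 CPM in every low glucose library and at 106.5 CPM or more in every high glucose library, while MLX and MLXIP stayed between 47.2 and 82.4 CPM and MLXIPL ran from 71.1 CPM in LGV to 169 CPM in HG.

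The same glucose contrast in VPA-treated cells, HGV against LGV, shares no library with HG against LG. Here 6 genes passed (5 up, 1 down), where 40.7% of 16208 genes did, 21.2% higher and 19.5% lower (25.5% and 14.7% by upper quartile). The 9 genes had a median of 0.375, against 0.0096 over all genes. TXNIP was at 8.94, 10.7 and 9.69 CPM in LGV and 362, 344 and 344 CPM in HGV. It rose by 5.15 ± 0.13 (FDR = 2.83e-14) and had both the highest rise and the smallest p of all genes. ARRDC4 was at 5.22, 6.69 and 6.46 CPM in LGV and 49.1, 37.6 and 45.2 CPM in HGV, a rise of 2.83 ± 0.14 (FDR = 9.93e-10). The groups of both genes were far apart, and the TXNIP level of HGV spread less than that of HG (SD 10.4 against 142 CPM).

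KLF10 rose by 1.82 ± 0.14 (FDR = 1.16e-07), from 20.8, 32.6 and 25.5 CPM in LGV to 99.0, 90.3 and 92.5 CPM in HGV. ARRDC3 rose by 0.92 ± 0.21 (FDR = 0.00219), from 5.70, 3.67 and 3.84 CPM to 8.40, 6.56 and 10.4 CPM. ARRDC2 fell by 0.74 ± 0.13 (FDR = 3.11e-04), from 22.7, 26.5 and 25.9 CPM to 14.0, 16.9 and 14.7 CPM. Values did not overlap between groups in these 3 genes, which was also so in genes that did not pass, such as PRDX2 (0.18, FDR = 0.25). The share of all genes without overlap was not counted.

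MLXIPL rose by 0.37 ± 0.13 (FDR = 0.0325), from 82.2, 71.1 and 85.2 CPM to 108, 85.6 and 119 CPM, and missed the threshold without HGV replicate 1 (0.35), HGV replicate 3 (0.27), LGV replicate 2 (0.30) or LGV replicate 3 (0.43, FDR = 0.0586). KLF11 had a log2 fold change of 0.29 (interval -0.04 to 0.61, FDR = 0.147), which passed without LGV replicate 2 (0.46, FDR = 0.0369). MLX and MLXIP had log2 fold changes of -0.09 and -0.18. All 9 genes had the same sign in both glucose contrasts, except that with upper quartile scaling MLX was at 0.0056 in HGV against LGV. The share of all genes with the same sign in both was not counted, so this is not shown to be particular to the 9 genes.

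In low glucose, VPA raised ARRDC4 most and lowered MLXIPL. In LGV against LG 6 genes passed (4 up, 2 down), where 41.6% of 15944 genes did, 21.7% higher and 19.9% lower (28.2% and 12.3% by library size, which also moves the median of all genes by 0.16). The median log2 fold change of the 9 genes was 0.32, against -0.006 over all genes. ARRDC4 rose from 1.01, 1.17 and 1.25 CPM in LG to 5.22, 6.69 and 6.46 CPM in LGV, by 2.42 ± 0.22 (5.34-fold; FDR = 1.27e-06). TXNIP, at 6.58, 6.21 and 6.31 CPM and then 8.94, 10.7 and 9.69 CPM, rose by 0.63 ± 0.17 (FDR = 0.00716; FDR = 0.0882 in a fit of all 12 libraries). ARRDC2 rose by 0.70 ± 0.14 (FDR = 8.98e-04) from 16.2, 16.6 and 13.9 CPM to 22.7, 26.5 and 25.9 CPM.

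MLXIPL fell by 0.81 ± 0.13 (FDR = 1.72e-04), from 159, 120 and 144 CPM to 82.2, 71.1 and 85.2 CPM, and the groups were well apart. MLXIP fell by 0.35 ± 0.12 (FDR = 0.0289), from 81.2, 78.8 and 65.8 CPM to 55.8, 62.9 and 57.2 CPM. Its call was lost without LG replicate 1 (FDR = 0.0960), LG replicate 2 (FDR = 0.0566), LGV replicate 1 (FDR = 0.0891) or LGV replicate 3 (FDR = 0.128), and with library size or upper quartile scaling. KLF10 rose by 0.49 ± 0.16 (FDR = 0.0238), from 18.8, 20.3 and 17.6 CPM to 20.8, 32.6 and 25.5 CPM, and its call was lost without LG replicate 1 (FDR = 0.0797), LGV replicate 2 (0.31, FDR = 0.176) or LGV replicate 3 (FDR = 0.0517), and in a fit of all 12 libraries (FDR = 0.0815). ARRDC3 (0.32, interval -0.20 to 0.85), KLF11 (0.12, interval -0.32 to 0.56) and MLX (-0.06, interval -0.30 to 0.18) did not pass.

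In high glucose, HGV against HG, 4 genes passed (2 up, 2 down), where 46.1% of 16188 genes did, 25.8% higher and 20.2% lower (32.0% and 15.0% by library size, with a shift of the median of all genes of 0.12). The 9 genes had a median of 0.19, against 0.025 over all genes. ARRDC4 rose again, from 5.23, 15.4 and 10.9 CPM in HG to 49.1, 37.6 and 45.2 CPM in HGV. The rise was 2.06 ± 0.27 (4.17-fold; FDR = 6.97e-05), and 1.72 without HG replicate 1 (FDR = 1.52e-05). ARRDC2 rose by 0.58 ± 0.13 (FDR = 0.00294), from 9.29, 10.7 and 10.5 CPM to 14.0, 16.9 and 14.7 CPM. MLXIPL fell by 0.64 ± 0.12 (FDR = 0.00104), from 169, 161 and 157 CPM to 108, 85.6 and 119 CPM, and KLF11 fell by 0.51 ± 0.13 (FDR = 0.00575), from 27.6, 37.7 and 34.0 CPM to 24.5, 22.4 and 22.7 CPM.

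TXNIP was at 106.5, 389 and 277 CPM in HG and at 362, 344 and 344 CPM in HGV, so the groups overlapped. Its log2 fold change was 0.44 (interval -0.24 to 1.13, FDR = 0.277), and was 0.05 without HG replicate 1 and 0.87 without HG replicate 2, which passed (FDR = 0.0331). KLF10 had a log2 fold change of 0.18 (interval -0.32 to 0.68, FDR = 0.554), which was -0.12 without HG replicate 1. ARRDC3 was at 0.43 (interval 0.01 to 0.86, FDR = 0.0890) and passed without HG replicate 1 (0.58, FDR = 0.0358) or HGV replicate 2 (0.60, FDR = 0.0145), or by library size or upper quartile. MLX (0.19) and MLXIP (-0.13) did not pass, but MLX did when scaled by library size (0.31, FDR = 0.0166).

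**Figure D3:**
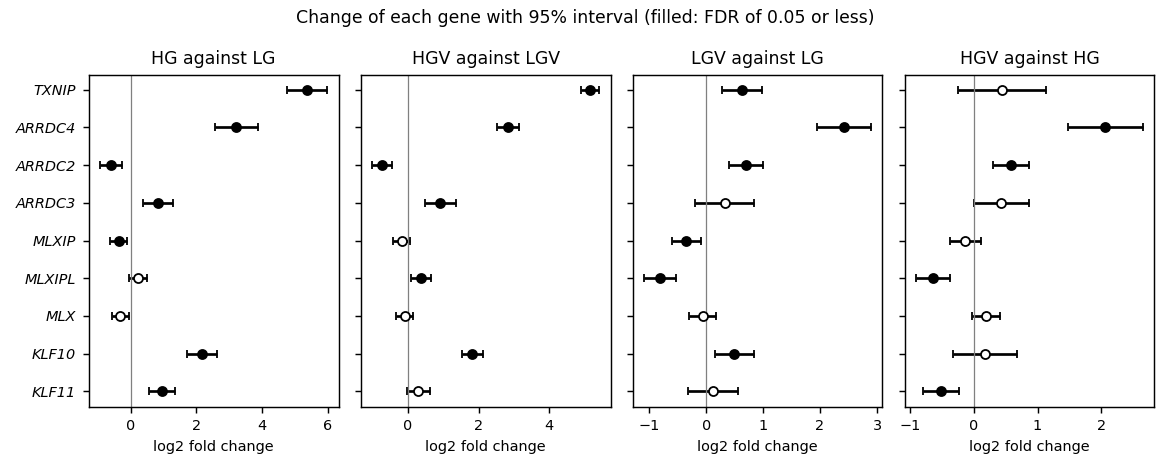
Each panel plots the log2 fold change of the 9 genes in 1 comparison with its 95% interval, filled where the edgeR FDR is 0.05 or less. ARRDC4 rose in all 4 comparisons, and TXNIP rose by over 5 on the log2 scale in both glucose comparisons.

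Whether VPA changed the glucose response was tested as an interaction over the 12 libraries. None of the 9 genes passed with edgeR's quasi-likelihood test, its likelihood ratio test or DESeq2, where 0.0427% of 16389 genes passed the first. Only 1 of them, KLF11, had an unadjusted p under 0.05 in edgeR's fit (FDR = 0.368), at -0.62 (interval -1.17 to -0.08). TXNIP was at -0.18 (interval -0.98 to 0.62) and ARRDC4 at -0.34 (interval -1.14 to 0.45). These intervals leave room for a difference of about 1 on the log2 scale, so the glucose responses are not shown to be alike.

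The level of ARRDC4 relative to TXNIP within a library cancels the library's scaling. This and 2 other ratios were chosen after the values were seen, so they are given as a description, with no test. The ARRDC4 to TXNIP count ratio was 0.153, 0.189 and 0.198 in LG and 0.584, 0.624 and 0.667 in LGV. In HG it was 0.0491, 0.0396 and 0.0392, and in HGV 0.136, 0.109 and 0.131. The mean log2 ratio was higher with VPA by 1.80 in low and 1.56 in high glucose, and it was 4.60-fold lower in high than in low glucose. HG replicate 1 lay close to the other HG libraries here.

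The MLXIPL to MLXIP ratio was 1.96, 1.52 and 2.19 in LG and 1.47, 1.13 and 1.49 in LGV. In HG it was 3.03, 2.56 and 2.94, and in HGV 1.90, 1.82 and 2.24. The mean log2 ratio with VPA differed by -0.46 in low and -0.52 in high glucose, and it was higher in high glucose by 0.60 without and 0.55 with VPA, although LG replicate 2 lay close to the LGV values and HGV overlapped LG. The KLF10 to KLF11 ratio was 0.94, 1.01 and 1.44 in LG, 1.71, 3.09 and 2.49 in HG, 1.47, 1.41 and 1.34 in LGV and 4.04, 4.04 and 4.07 in HGV. The mean log2 ratio was higher in high glucose by 1.09 without and 1.53 with VPA. With VPA it was higher by 0.34 in low glucose, where LG and LGV overlapped, and by 0.78 in high glucose, where HG and HGV did not.

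**Figure D4:**
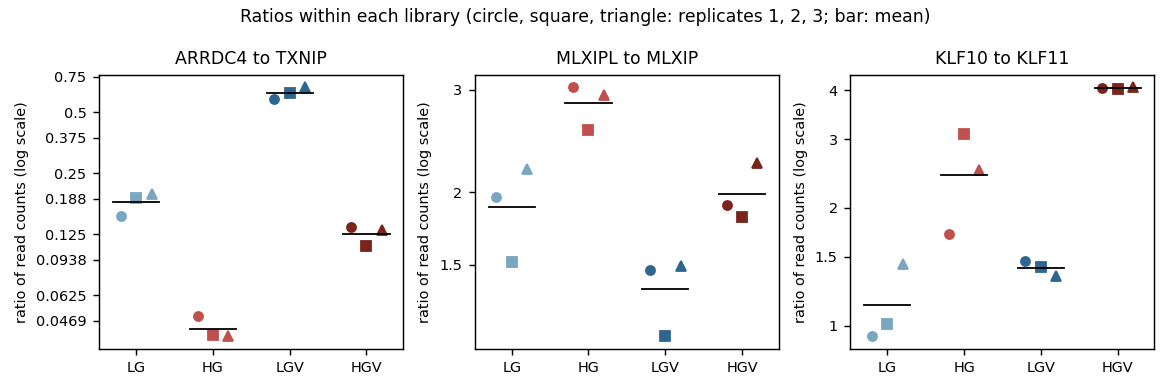
Each panel plots a ratio of 2 genes' counts in each library (log axis), with circles, squares and triangles for replicates 1, 2 and 3 and bars for the mean. The ARRDC4 to TXNIP ratio is highest in LGV and lowest in HG, and no group overlaps another.

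Levels were compared between genes as CPM per kilobase of exon (mean ± SD), and neighbours in the order are called overlapping where these ranges meet. The length was that of all annotated exons of a gene merged (13905 bp for MLXIP and 4255 bp for MLX). Levels are understated where the expressed transcripts are shorter, so the order between genes is approximate. In LG, MLXIPL was highest (29.3 ± 4.1), followed by MLX (18.1 ± 1.1), then MLXIP (5.41 ± 0.59), KLF10 (4.94 ± 0.35), KLF11 (3.79 ± 0.98) and ARRDC2 (3.36 ± 0.31), of which each overlapped the next, and TXNIP (1.77 ± 0.05), ARRDC3 (0.71 ± 0.16) and ARRDC4 (0.28 ± 0.03) were lowest. In HG, TXNIP (71.7 ± 39.6) overlapped MLXIPL (33.7 ± 1.2), KLF10 (21.7 ± 9.0) overlapped MLX (14.3 ± 0.7), and KLF11 stood at 7.21 ± 1.10. In HG MLXIP (4.13 ± 0.37), ARRDC4 (2.59 ± 1.26) and ARRDC2 (2.19 ± 0.16) each overlapped the next, and ARRDC3 was lowest (1.25 ± 0.25). In HG replicate 1 TXNIP was at 29.6 CPM per kb, below MLXIPL at 35.0, and in the other HG libraries it was above.

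In LGV the order began with MLX (17.2 ± 0.9) and MLXIPL (16.5 ± 1.5), which overlapped, and ended with TXNIP (2.72 ± 0.25), ARRDC4 (1.51 ± 0.19) and ARRDC3 (0.88 ± 0.23). Between them KLF10 (6.88 ± 1.55) overlapped ARRDC2 (5.40 ± 0.44), and MLXIP (4.22 ± 0.27) overlapped KLF11 (4.09 ± 0.97). In HGV, TXNIP was far above the rest (97.5 ± 2.9), KLF10 (24.6 ± 1.2) overlapped MLXIPL (21.7 ± 3.6), and MLX (16.4 ± 1.1) and ARRDC4 (10.8 ± 1.4) followed. KLF11 (5.05 ± 0.25), MLXIP (3.77 ± 0.36) and ARRDC2 (3.28 ± 0.32) came next in HGV, with the last pair overlapping, and ARRDC3 was lowest (1.69 ± 0.38).

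Over the 12 libraries the gene nearest to TXNIP in profile was KLF10, and the reverse held too. Likeness was the root mean square difference of z-scored log2 CPM, compared over 12480 genes, and the libraries share the 4 groups. TXNIP and KLF10 were at 0.182, and the next genes were CRIP3 (0.228) and PARP2 (0.231) for TXNIP, and AOC3 (0.306) and PARP2 (0.326) for KLF10. Z-scores leave out the size of a change. PARP2 was at 24.5 CPM in LG and 36.8 CPM in HG and AOC3 at 29.9 and 34.6 CPM, against 6.37 and 258 CPM for TXNIP. Nearest to ARRDC4 were IL21R (0.176), EXTL1 (0.244) and VWA5A (0.256), while TXNIP itself was 0.527 from ARRDC4. IL21R was at 0.24 CPM in LG and 4.79 CPM in HGV, and CRIP3 at 0.46 and 4.61 CPM. Both reached the mean of 1 log2 CPM only through the groups where they were high. Nearest to MLXIPL were SARS2 (0.186), GPAM (0.225), which starts glycerolipid synthesis, and UNC5CL (0.235), and nearest to KLF11 MT-CO1 (0.486), MSLN (0.503) and AGA (0.517). SARS2 was low as well, with group means from 0.66 CPM in LGV to 2.91 CPM in HG.

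The other glucose-response targets, 25 of 30 listed being in the table, included genes of glycolysis, lipid synthesis and lipid export. In HG against LG 12 rose and 4 fell of 24 tested, with a median of 0.42 against 0.011 for all genes. PKLR, the liver pyruvate kinase, was at 5.05, 2.77 and 6.20 CPM in LG and 10.8, 23.2 and 18.1 CPM in HG, a rise of 1.93 ± 0.27 (FDR = 7.79e-05). PNPLA3, a lipid droplet protein (1.42), the apolipoprotein APOC3 (1.38) and GCKR, the regulator of glucokinase (1.24), also rose. The 4 that fell were FGF21 (-1.05), CHKA (-0.91), HK2 (-0.46) and NR1H4 (-0.43). Of lipid synthesis genes, ELOVL6 (0.79), SCD (0.46) and ACACB (0.46) rose, while ACLY (0.20), ACACA (0.18) and FASN (0.07) did not pass. In HGV against LGV 11 rose and 3 fell of 25, and the largest rises were PKLR (2.10), APOC3 (1.69), KHK (1.16) and PNPLA3 (1.14). The 3 that fell were NR1H4 (-0.94), CHKA (-0.91) and FGF21 (-0.80). VPA moved 6 up and 8 down in high glucose and 3 up and 9 down in low glucose, so 14 and 12 of 25 passed, where 46.1% and 41.6% of all genes did. NR1H4, the bile acid receptor, fell in both (-1.79 and -1.32). PPP1R3B counts toward the rises in both, but it had 4 to 9 reads in the LG and HG libraries and 13 to 36 in those with VPA, so it was tested only through the groups where it was high and no fold is given. The medians were 0.351 in HGV against LGV (0.0096 over all genes), -0.081 in HGV against HG (0.025) and -0.185 in LGV against LG (-0.006).

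**Figure D5:**
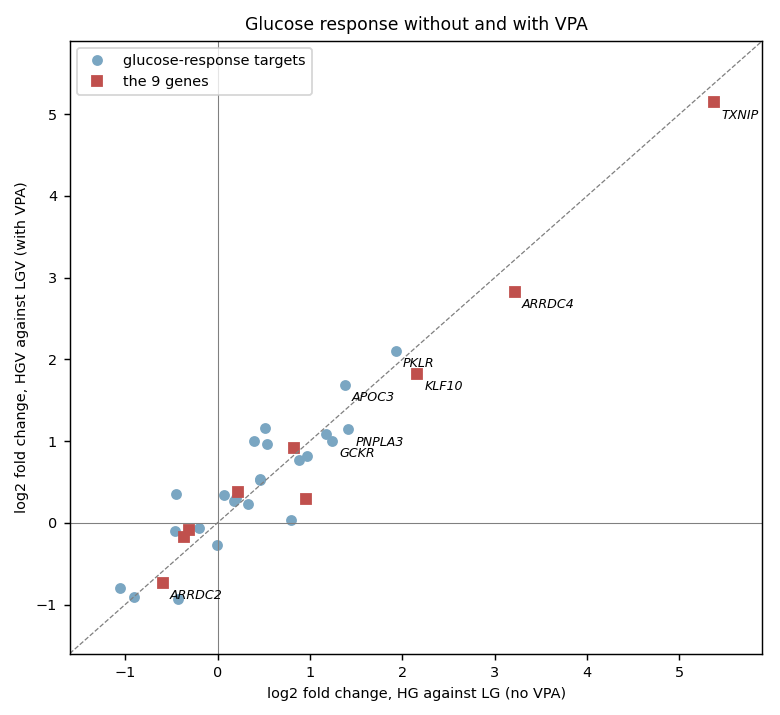
Each point is a gene, with its log2 fold change for HG against LG on the x axis and for HGV against LGV, from other libraries, on the y axis, and a dashed line of equality. The 9 genes are red squares and other glucose-response targets blue circles, and TXNIP, ARRDC4 and KLF10 lie far out near the line.

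The shares of all genes that passed, given above, were 24.7% in HG against LG, 46.1% in HGV against HG, 41.6% in LGV against LG and 40.7% in HGV against LGV, with medians over all genes between -0.006 and 0.025, and many of the list counts that follow lie near these shares. Of 11 other Max and Mlx network genes tested, 2 rose and 2 fell in HG against LG, 4 and 4 in HGV against HG, 3 and 3 in LGV against LG, and 2 and 6 in HGV against LGV. The list's medians lay between -0.35 and -0.25. MYCL rose in all 4 (0.87 to 1.04), USF2 fell in all 4 and MXD1 fell with glucose (-0.996 and -0.894) and rose with VPA (0.66 and 0.53). Of 13 arrestin-fold relatives and ubiquitin ligases, 1 rose and 4 fell in HG against LG, 4 and 1 in HGV against HG, 2 and 1 in LGV against LG, and 0 and 6 in HGV against LGV, with medians between -0.31 and 0.17. ARRB1, a beta-arrestin, fell with glucose (-1.01 and -0.55). Of 16 thioredoxin system genes, 1 rose and 4 fell in HG against LG, 3 and 7 in HGV against HG, 2 and 7 in LGV against LG, and 3 and 2 in HGV against LGV, with medians between -0.32 and -0.02. TXNRD1, the cytosolic thioredoxin reductase, fell with glucose (-0.55 and -0.77), and MSRB3 rose (1.90 and 2.47) and TXNRD2 fell (-1.41 and -1.61) with VPA. Of 15 TGF-beta inducible genes and KLF corepressors, 1 rose and 3 fell in HG against LG, 4 and 4 in HGV against HG, 3 and 1 in LGV against LG, and 2 and 4 in HGV against LGV, with medians between -0.16 and 0.13. TGFB3 rose with VPA (2.32 in both media). Of the 10 hepatocyte markers 2 rose with glucose and 0 fell in HG against LG, 1 and 3 in HGV against HG, 0 and 7 in LGV against LG, and 4 and 0 in HGV against LGV, with medians between -0.54 and 0.36. Of the markers of other cell types 1 of 2 tested rose in HG against LG, and 2 rose and 1 fell of 4 in HGV against HG, 1 rose of 3 in LGV against LG, and 3 rose of 4 in HGV against LGV, with medians of 0.705, 0.913, -0.125 and 1.16. These counts rest on few reads: COL1A1, the riser in LGV against LG, had 10, 5 and 7 reads in LG and 36, 23 and 54 in LGV, so it entered that test only through LGV, and CDH5 had 1, 2 and 11 reads in LG and was not tested against LG.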

How the data were processed

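RNA was measured in 12 libraries of HepG2 cells, 3 each of LG, HG, LGV and HGV, made with a directional poly(A) kit. The authors aligned single-end reads to GRCh37 with STAR, counted them per gene with featureCounts and deposited raw counts for 16389 genes with a mean of at least 10 reads. Library totals ran from 29798442 to 45572694, and a floor of 3 reads was 0.0713 to 0.112 CPM (counting error only). Genes averaging 10 or more counts over the libraries fitted entered edgeR 4.0.16 in R 4.3.3 (TMM, quasi-likelihood F test, Benjamini-Hochberg FDR over all genes, called at 0.05), and each standard error came from the same fit. Alternatives were other scaling (including DESeq2 1.42.0 size factors), edgeR's likelihood ratio test, DESeq2's Wald test, other filters, a replicate block, all 12 libraries, an FDR of 0.01 and leaving out each library. Tests were tried on simulated data. Positions and exon lengths came from GENCODE on GRCh37, with 8 genes placed by identifier and TXNIP by symbol, and promoter windows from RefSeq. Ratios of counts were computed in Python 3.11.15. The 9 genes and the 7 lists were chosen with earlier results of these data known. Named were all 9 genes, up to 4 called genes with the largest change per list and comparison, and the 3 genes most like each of 5 of the 9, by profile. Some further list genes were named to show falls or changes that did not pass.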

Additional observations from a re-analysis of the deposited data

How the results depend on the processing

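Of 720 log2 fold changes of the 9 genes under alternatives, 670 kept direction and side of the threshold, 27 lost the call, 10 gained it and 13 changed sign. The number of the 9 genes called in HG against LG was 7, with a range of 4 to 7 leaving out 1 library (4 without LG replicate 1), 8 with all 12 libraries and 5 at an FDR of 0.01. MLX in LGV against LG was -0.06, but 0.10 by library size and 0.0221 by upper quartile, and in HGV against LGV 0.0056 by upper quartile. Leaving out 1 library moved KLF10 in HGV against HG from -0.1238 to 0.5056 and KLF11 in LGV against LG from -0.0664 to 0.2995. In the interaction the ranges were -0.5944 to 0.2193 (TXNIP), -0.7078 to 0.0136 (ARRDC4), -0.0728 to 0.352 (ARRDC3) and -0.6235 to 0.001 (KLF10). Same-numbered libraries correlated in their deviations from the group mean at -0.255 to 0.382, and differently numbered ones at -0.485 to 0.478. Deviations within a group of 3 are tied to each other, so these values cannot decide whether the numbers pair the libraries. A replicate block moved calls over all genes from 7456 to 8229 in HGV against HG and from 6638 to 6971 in LGV against LG. It moved them from 6604 to 7308 in HGV against LGV, but from 3813 to 3351 in HG against LG. With a replicate block, 6 genes passed in HG against LG and 6 in HGV against HG, where TXNIP (0.62, FDR = 0.00738) and ARRDC3 then passed, while the call of MLXIP in HG against LG was lost. Over all genes, calls in HG against LG went from 3813 to 1852 at an FDR of 0.01 and to between 1933 and 5338 leaving out 1 library, in HGV against LGV from 6604 to 4263 at that FDR, and in the interaction from 7 to 1 by library size or that FDR, 202 by likelihood ratio test, 162 by DESeq2, 13 with the block and 1 to 217 leaving out 1 library. The cause was not tested. Of the 9 genes, the fewest reads were those of ARRDC4 in LG (27 to 49), HG replicate 1 (165) and LGV replicate 1 (174). Elsewhere they were those of ARRDC3 (113 and 144 in LGV replicates 2 and 3).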

Other observations

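The 10 genes furthest below HG replicates 2 and 3, of 12480, were TXNIP (-1.62 on the log2 scale), TXNDC5 (-1.44), C19orf80 (-1.43), MT-TP (-1.37), ARRDC4 (-1.23), CYP24A1 (-1.20), CORO1A (-1.08), KLF10 (-1.06), LCK (-1.04) and PKLR (-0.90), a list chosen after its values were seen. C19orf80 was at 15.6, 52.4 and 35.3 CPM in the 3 HG libraries, TXNDC5 at 2.09, 5.89 and 7.22 CPM and PKLR at 10.8, 23.2 and 18.1 CPM.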
